A study of Mus musculus with 16 samples.

Results

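T cell receptor (TCR) beta chains that occurred in more than 1 of 8 mouse libraries were described here. A chain was defined by its V segment (TRBV), its J segment (TRBJ) and the amino acids of the CDR3 (the third complementarity-determining region), in cells with exactly 1 beta (TRB) and 1 or 2 alpha (TRA) chains. Members were the 1020 chains found in 2 or more libraries, 3.75% of the 27235 chains seen, and they were carried by 4282 of 38108 cells (11.2%). The other 26215 chains were found in 1 library. Since occurrence in several libraries chose the members, the number of libraries is a description and was not tested.

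The cells were CD44high CD4+ T cells, which have seen antigen, sorted from the spleen of mice at day 18 after a graft of Vk12653 multiple myeloma cells, a transplantable tumour from the Vk*Myc model. All mice received 50 µg of an antibody that removes NK1.1-bearing cells at days -2 and 5. At days 10, 13 and 16 they received 20 µg of an agonistic antibody to the costimulatory receptor 4-1BB (CD137), or control IgG. Wild-type (WT) mice were labelled Eomes-IRES-GFP, a reporter strain for the transcription factor Eomes. Knockout (KO) mice were Eomesfl/fl-CD4Cre in experiment 1, in which Cre acts in all cells that have expressed CD4, and Eomesfl/fl-ERT2CD4Cre in experiment 2, in which tamoxifen switches Cre on. Tamoxifen was given to WT and KO mice of experiment 2, so the form of knockout, tamoxifen and the experiment cannot be told apart. Each of the 4 groups (WT or KO, IgG or anti-4-1BB) had 1 library in each of 2 experiments. The labels do not say how many mice a library came from, so p-values measure the spread between libraries. Gene expression was not analysed here, and the sorted phenotype was therefore not checked against marker genes.

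A TCR beta chain is assembled in the thymus by joining a V, a D and a J segment of the locus. Bases are trimmed from the segment ends and untemplated bases are added at the joins, and the joins encode the CDR3, the loop that contacts the peptide. Most chains are therefore rare, but a chain that needs few added bases, or that many nucleotide sequences encode, can arise again in unrelated cells. Such chains, found in many individuals, are called public, and the making of 1 amino acid sequence by different nucleotide joins is called convergent recombination.

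The chain found in the most libraries shows what recurrence looked like at the nucleotide level. TRBV20 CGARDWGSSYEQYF TRBJ2-7 was present in all 8 libraries, in 30 cells with 10 nucleotide versions of the CDR3. The 4 versions seen in 2 or more cells, and 1 of the 6 seen in 1 cell, are printed 5′ to 3′ with the positions that varied among the 10 versions in capitals. The name gives the cells and the libraries of each.
TRBV20 version in 15 cells of 8 libraries: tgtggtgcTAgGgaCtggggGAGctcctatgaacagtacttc
TRBV20 version in 4 cells of 4 libraries: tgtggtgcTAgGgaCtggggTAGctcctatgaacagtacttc
TRBV20 version in 3 cells of 2 libraries: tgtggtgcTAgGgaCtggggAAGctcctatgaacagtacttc
TRBV20 version in 2 cells of 1 library: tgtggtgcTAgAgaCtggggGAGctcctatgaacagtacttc
TRBV20 version in 1 cell of 1 library: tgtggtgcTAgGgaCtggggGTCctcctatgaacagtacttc
The version printed at the top occurred in every library. The capitals fall in codons for alanine, arginine, aspartate, glycine and serine, all of which have several codons, and all versions encode the same 14 residues.

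For 6 members on which the results below turn, the version with the most cells is printed with the central bases in capitals. Central bases are those between the V start and the J end of the CDR3, as far as these match the commonest start or end read from the sequences of the label. They hold bases of the D segment and added bases, other than those that match these ends. In the TRBV5 chain with TRBJ2-7 the version shown is the one in which the V and J ends met with no central base, in 11 cells.
TRBV20 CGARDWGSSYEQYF: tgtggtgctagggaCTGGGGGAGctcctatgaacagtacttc
TRBV1 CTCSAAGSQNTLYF: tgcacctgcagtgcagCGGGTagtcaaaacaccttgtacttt
TRBV26 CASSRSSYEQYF: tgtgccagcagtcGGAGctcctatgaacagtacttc
TRBV16 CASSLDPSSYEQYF: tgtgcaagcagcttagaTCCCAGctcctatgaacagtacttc
TRBV5 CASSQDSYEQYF: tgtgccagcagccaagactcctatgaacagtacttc
TRBV5 with TRBJ1-4: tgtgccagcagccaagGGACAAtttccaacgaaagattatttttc
Central bases numbered 9, 5, 4, 6, 0 and 6 in these sequences, in the order printed. The median was 7 over the 2156 nucleotide versions of members and 10 over the 26453 versions of chains in 1 library.

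Depth set how many recurrent chains could be seen. The libraries held 2656 to 8871 cells with a paired receptor. Over all cells of a library, including those left out, there were 8039901 to 15045635 reads and 80551 to 445027 unique molecular identifiers (UMIs). Because a larger library finds more shared chains, overlaps and shares of cells were computed as the exact expected value after every library was thinned to 2656 cells. Before thinning, members made up 6.16% (WT anti-4-1BB, experiment 1, the largest library) to 9.24% (KO anti-4-1BB, experiment 1, the smallest) of the chains of a library. Cell barcodes that 2 libraries shared numbered 11 to 76 per pair among the cells used, and in 0 of the 28 pairs did a shared barcode carry the same TRB nucleotides.

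Most members were at the edge of the definition. There were 861 chains in 2 libraries, 123 in 3, 19 in 4, 11 in 5, 3 in 6, 2 in 7 and 1 in 8. Of the members, 588 (57.6%) were seen in both experiments, 211 in experiment 1 alone and 221 in experiment 2 alone. The 17 chains present in 5 or more libraries were in both experiments by design, since an experiment has 4 libraries. By treatment, 605 members occurred with IgG and with anti-4-1BB, 207 with IgG alone and 208 with anti-4-1BB alone. By genotype, 633 occurred in WT and KO, 226 in WT alone and 161 in KO alone. The counts by experiment, treatment and genotype were taken before thinning, depend on the cells of each library and were not tested. Of the 28 pairs of libraries, 16 differ in experiment, 16 in treatment and 16 in genotype. The members just inside the threshold, those of 2 libraries, and the chains of 1 library with 2 cells are the closest to compare as a description. Of 575 members with 2 cells in all, 465 (80.9%) had a different CDR3 nucleotide sequence in each cell, against 136 of 2001 (6.80%) chains of 1 library with 2 cells. Different alpha chains were found in 93.4% and 30.9% of these chains. A member with 2 cells has them in separate libraries by definition, and clonal sisters of 1 library cannot meet it.

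Libraries of the same experiment shared more chains than libraries of different experiments. After thinning, the 12 pairs of the same experiment shared 13.7 ± 3.33 (SD) chains per 1000 and the 16 pairs of different experiments 10.4 ± 1.60. The difference was 3.26 per 1000 (p = 0.0286, two-sided exact permutation over the 70 ways to split 8 libraries, the smallest p this design allows, adjusted p = 0.0490 over 12 tests). The highest overlap was 18.8 per 1000, between WT IgG and KO IgG of experiment 2. The lowest was 6.34, between KO IgG of experiment 1 and WT anti-4-1BB of experiment 2. The groups of pairs overlapped in range, with 9.11 to 18.8 in the same experiment and 6.34 to 13.6 between experiments. Without WT anti-4-1BB of experiment 2 the difference was 3.35, with p = 0.0571 in the same exact test. It was 1.89 without chains of 10 or more cells and 1.93 with chains named by their nucleotides (p = 0.0286 in each, exact permutation).

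Most chains that a pair of libraries shared had no nucleotide version in common. Of the shared chains, 31.2% ± 4.55 (SD, 12 pairs) had one within an experiment and 25.4% ± 7.17 (16 pairs) between experiments. A common alpha chain was seen for 13.9% ± 8.16 and 12.4% ± 4.64 of shared chains. By treatment it was seen for 16.9% ± 5.64 of the chains shared by same-treatment pairs and 10.2% ± 5.24 of those shared by different-treatment pairs. Whole receptors, with identical nucleotides in the CDR3 of the beta and the alpha chain, were found in more than 1 library 33 times among 30455. Of these, 9 were in experiment 1 alone, 17 in experiment 2 alone and 7 in both. Counted over pairs of libraries, they gave 27 matches in 12 pairs of the same experiment and 8 in 16 pairs of different experiments. Most rested on few cells: 28 of the 33 had 1 cell in the smaller library, and 16 had 1 cell in each library. These values were not tested.

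The number of shared chains did not pass the test for treatment or genotype. Pairs with the same treatment shared 12.8 ± 2.80 (SD, 12 pairs) chains per 1000 and pairs with different treatments 11.1 ± 2.92 (16 pairs), a difference of 1.65 (p = 0.171, exact permutation, 2-sided). Inside experiment 1 the same-treatment pairs averaged 15.1 and the others 11.5, and inside experiment 2 16.7 and 13.6, from 2 and 4 pairs each. The same and different genotype pairs shared 11.7 ± 2.85 and 11.9 ± 3.09 per 1000, a difference of -0.163 (p = 0.886 in the same exact test).

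**Figure D1:**
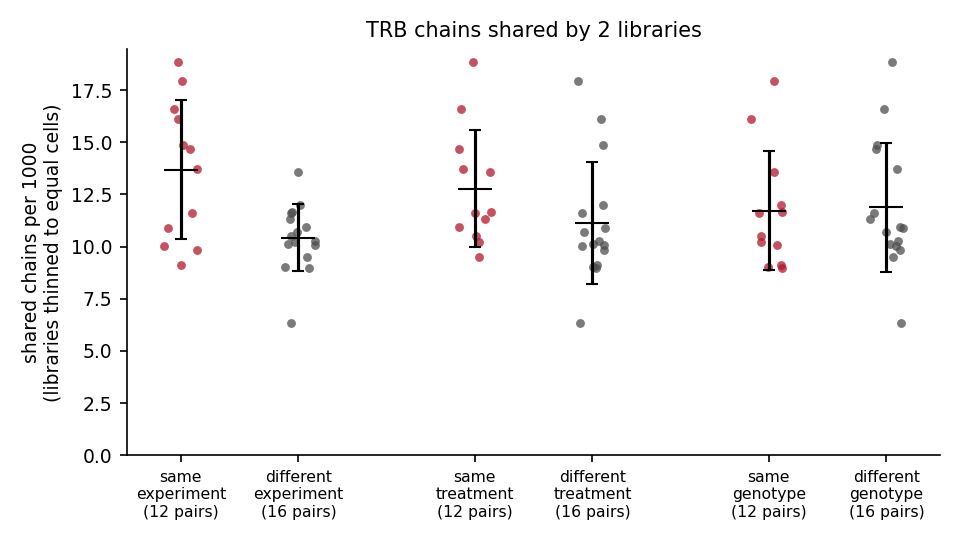
Each point is 1 of the 28 pairs of libraries, and the y axis gives the TRB chains they shared per 1000 after thinning to equal cells. Bars are means with SD. Pairs of the same experiment averaged 13.7 and pairs of different experiments 10.4, while the same and different genotype pairs lay at 11.7 and 11.9.

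Cells with a recurrent chain were more frequent in experiment 2 than in experiment 1. After thinning, 6.64% (WT with IgG), 6.35% (WT with anti-4-1BB), 6.54% (KO with IgG) and 6.65% (KO with anti-4-1BB) of cells of experiment 1 had a TRB chain found in another library. In experiment 2 the values were 7.42%, 10.2%, 9.12% and 15.8% in the same order. The mean was 6.54% ± 0.139 (SD, n = 4) in experiment 1 and 10.6% ± 3.62 in experiment 2, and all 4 libraries of experiment 2 were above all 4 of experiment 1. The difference of 4.08 percentage points had p = 0.0286 (two-sided exact permutation, the smallest possible, adjusted p = 0.0490).

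Chains of many cells were then left out. Without chains of 10 or more cells, a filter on the same cell counts that the share sums, the shares were 5.27% to 6.02% in experiment 1 and 4.93% to 6.51% in experiment 2, and the difference was 0.011 percentage points (p = 0.971, exact permutation). Leaving out the TRBV1 chains described below gave 7.35%, 7.80%, 8.996% and 10.4% in experiment 2 and a difference of 2.13 (p = 0.0286, exact permutation). Counting each clonotype (cells of 1 library with the same beta and alpha CDR3 nucleotides) as 1 cell gave 6.14% to 6.69% in experiment 1 and 6.73% to 9.46% in experiment 2, a difference of 1.29 (p = 0.0286, exact permutation). Leaving out any 1 of the 4 libraries of experiment 1 gave differences of 3.93 to 4.58 percentage points with p = 0.0571 in the exact permutation test. Without KO anti-4-1BB of experiment 2 the difference was 1.66.

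By treatment, cells with a recurrent chain were 9.74% ± 4.39 (SD, n = 4) with anti-4-1BB and 7.43% ± 1.195 with IgG, a difference of 2.31 percentage points (p = 0.4, two-sided exact permutation). Inside experiments the difference was 0.11 in KO and -0.29 in WT mice of experiment 1, and 6.65 in KO and 2.77 in WT mice of experiment 2. By genotype the means were 9.52% ± 4.34 in KO and 7.65% ± 1.75 in WT (p = 0.6, exact permutation). Inside experiments KO minus WT was -0.10 (IgG) and 0.30 (anti-4-1BB) in experiment 1, and 1.71 and 5.59 in experiment 2. The groups overlapped in both comparisons. Without KO anti-4-1BB of experiment 2 the difference was 0.398 by treatment and -0.0556 by genotype. Without the TRBV1 group it was 0.386 and 1.10. Without chains of 10 or more cells, a setting chosen after seeing the data, the treatment difference turned to -0.433 (p = 0.229, exact permutation). In that setting KO libraries lay at 5.91% to 6.51% and WT libraries at 4.93% to 5.67%, a difference of 0.732 (p = 0.0286, the smallest the exact permutation allows).

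**Figure D2:**
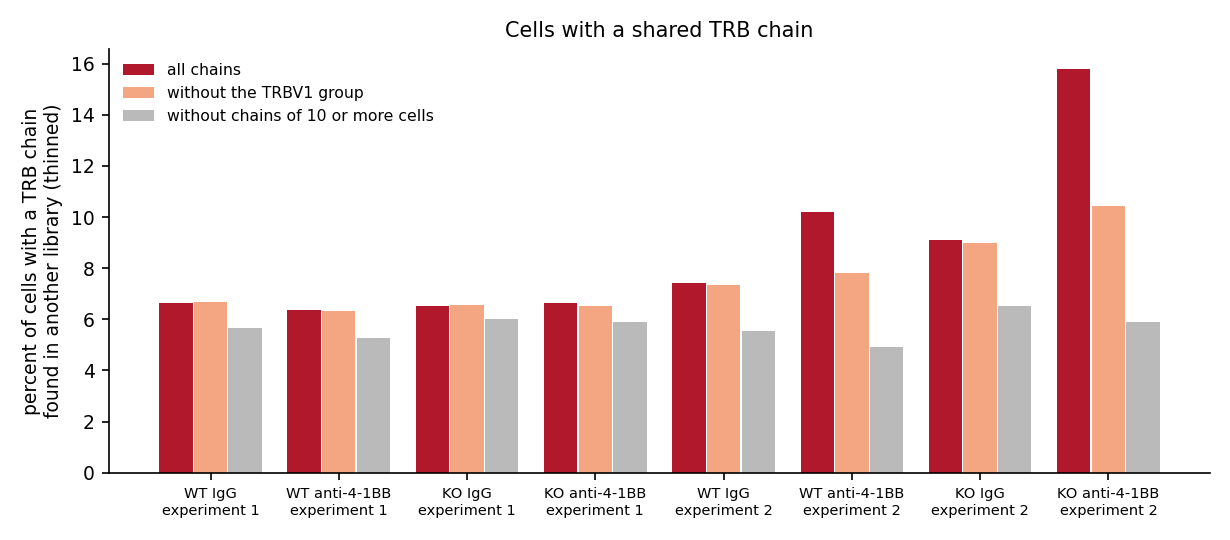
Bars give, for each library, the percent of cells whose TRB chain was found in another library after thinning, for all chains, without the TRBV1 group and without chains of 10 or more cells. KO anti-4-1BB of experiment 2 fell from 15.8% to 10.4% and 5.91%, and experiment 1 stayed between 5.27% and 6.66% in all 3 series.

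Recurrent chains had shorter CDR3s. With each chain counted once, the mean length was 13.3 ± 0.111 amino acids (SD over 8 libraries) for members and 13.8 ± 0.0404 for chains of 1 library. Members were shorter in 8 of 8 libraries, by -0.31 in WT anti-4-1BB of experiment 1 to -0.61 in WT IgG of experiment 2. The mean difference was -0.47 ± 0.105 amino acids (p = 0.0078, exact permutation of signs, two-sided, the smallest that 8 libraries allow, adjusted p = 0.0188). CDR3s of 12 amino acids or fewer made up 23.8% of members and 16.0% of other chains, and CDR3s of 16 or more made up 1.96% and 9.30%. The longest member had 17 residues and the longest other chain 22.

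The percent of chains found elsewhere differed most between lengths at the long end. The percent of a library's chains found in another library was 11.5% ± 1.52 (SD, n = 8) at 12 amino acids, 9.27% ± 1.34 at 13 and 9.31% ± 1.26 at 14. It was 5.55% ± 1.10 at 15, 1.91% ± 0.835 at 16 and 1.249% ± 0.911 at 17 or more. Neighbouring lengths from 12 to 14 lay within 2 SD of each other, and the libraries at 15 and 16 did not overlap, with 4.02% to 7.37% and 1.06% to 3.49%.

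The number of central bases separated the chains more evenly than length. Members had 7.48 ± 0.362 central bases (SD, n = 8) and other chains 9.87 ± 0.0833. Members had fewer in 8 of 8 libraries, and the mean difference was -2.39 ± 0.372 bases (p = 0.0078, exact permutation of signs, adjusted p = 0.0188). Of the nucleotide versions of members, 39.5% had 6 or fewer central bases, against 19.03% of the versions of other chains. Chains with 0 to 2 central bases were found elsewhere in 23.8% ± 4.10 of cases. The percent was 16.2% ± 2.21 with 3 to 5 bases, 10.5% ± 1.24 with 6 to 8, 6.90% ± 1.34 with 9 to 11, 4.35% ± 0.828 with 12 to 14 and 2.26% ± 0.792 with 15 or more. These ends were read from the deposited sequences, so a base that was removed and added back alike counts as V or J.

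**Figure D3:**
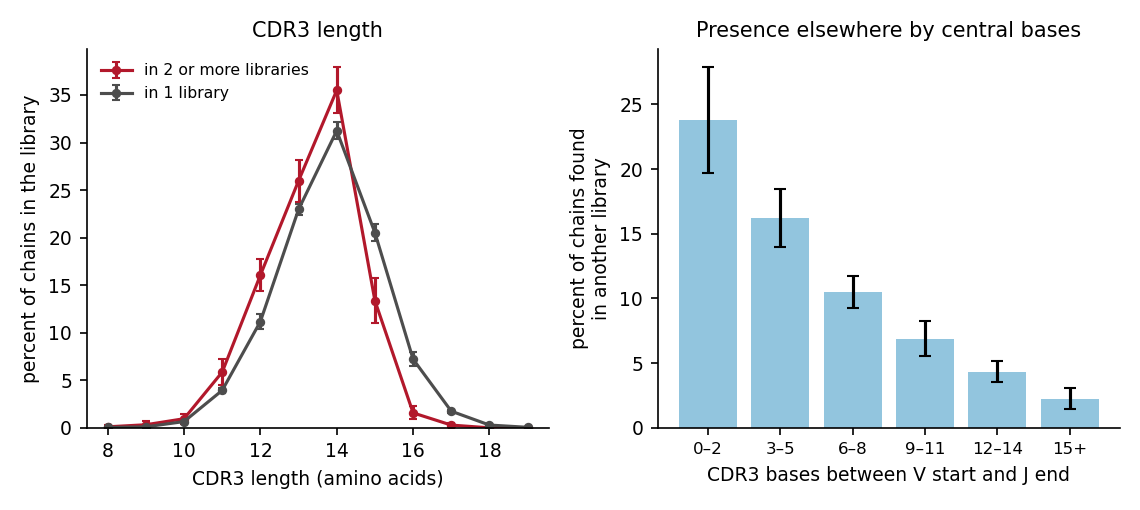
The left panel gives the percent of chains at each CDR3 length in amino acids for members (red) and chains of 1 library (grey), as means with SD over 8 libraries. The right panel gives the percent of chains found in another library by the number of central bases, which went from 23.8% at 0 to 2 bases to 2.26% at 15 or more.

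V and J use differed between members and other chains for 14 of 34 segment labels in an edgeR quasi-likelihood test with a term for each library (41.2% of the labels tested, Benjamini-Hochberg adjusted p under 0.05). The labels count chains, each chain once. In members 4 labels were more frequent (11.8% of those tested) and 10 less frequent (29.4%). DESeq2 called 2 of these 14, the joined TRBV12-2 and TRBV13-2 label and TRBV19. Leaving out 1 library left 3 (without KO anti-4-1BB of experiment 1), 4 (without WT anti-4-1BB of experiment 1), 6 (without WT anti-4-1BB of experiment 2) or 8 calls (without KO anti-4-1BB of experiment 2 or WT IgG of experiment 1).

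The label with the lowest p was the one that joins TRBV12-2 and TRBV13-2. It made up 20.6% ± 5.87 of members and 12.05% ± 0.800 of other chains (SD, n = 8). Members used it more in 8 of 8 libraries, with a log2 ratio of 0.71 ± 0.14 (SE, adjusted p = 3.2e-05). The CDR1 was that of TRBV13-2 in 99.7% of 8484 such contigs. Contigs labelled TRBV13-2 alone were 1.01% of members and 2.10% of other chains, a log2 ratio of -1.18 ± 0.44 that turned to 0.76 when the joined label was read as TRBV13-2. TRBV26 was 7.26% ± 3.10 of members and 5.08% ± 0.424 of others (log2 ratio 0.57 ± 0.20, adjusted p = 0.0233, higher in 6 of 8 libraries). TRBV3 and TRBJ2-7 were higher in members by 0.39 ± 0.16 and 0.27 ± 0.09 on the log2 scale, in 5 and 7 of 8 libraries. TRBJ2-7 is the J segment of 4 of the sequences printed above, and it ended 21.2% of members and 17.7% of other chains.

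Among the labels less frequent in members, TRBV19 (chr6:41178589-41179048 of GRCm38, per RefSeq) had the lowest p. It was used by 23 of the members and 1309 other chains, 2.14% ± 1.43 and 4.75% ± 1.11 of a library, and was lower in 8 of 8 libraries (log2 ratio -1.12 ± 0.29, adjusted p = 0.00279). TRBV17 (2 members against 254 other chains), TRBV29 (9 against 566), TRBV12-2 (6 against 471), TRBV14 (8 against 488) and TRBV13-3 (45 against 1789) had log2 ratios from -0.63 to -2.30. The J segments TRBJ1-6, TRBJ1-5 and TRBJ2-1 were lower by -0.90 ± 0.32, -0.80 ± 0.31 and -0.48 ± 0.15. TRBJ2-1 lies at chr6:41542754-41542803 and TRBJ2-7 at chr6:41543810-41543856, in the same J cluster. TRBV1, which the largest group of member cells used, was 5.44% of members and 6.27% of other chains and did not pass the test (log2 ratio -0.16 ± 0.21, adjusted p = 0.617, edgeR).

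**Figure D4:**
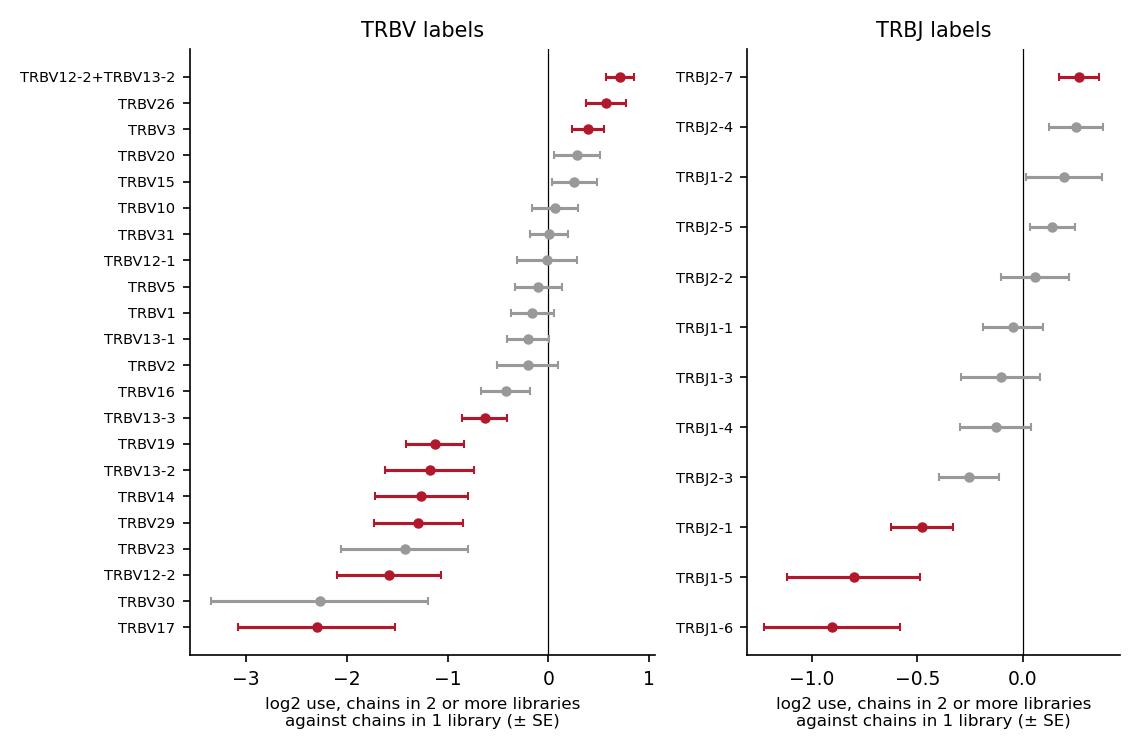
Points are log2 ratios of the use of each TRBV (left) and TRBJ (right) label by members against chains of 1 library, with SE, and red marks an edgeR adjusted p under 0.05. The joined TRBV12-2 and TRBV13-2 label stood highest at 0.71, TRBV17 lowest at -2.30, and TRBJ labels spanned -0.90 to 0.27.

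The nucleotide versions of a chain inside 1 library went with its presence elsewhere. Over all libraries 846 members (82.9%) had 2 or more CDR3 nucleotide versions, and the most was 18. To keep the measure apart from the definition, versions were counted inside a library and presence was read from the other 7. Chains with 2 or more versions in a library were found elsewhere in 53.8%, 34.2%, 36.4% and 47.4% of cases in experiment 1 and in 46.3%, 51.6%, 49.3% and 70% in experiment 2, with the groups in the order given above. Such chains numbered from 11 (KO IgG, experiment 1) to 149 (WT anti-4-1BB, experiment 1) per library. Chains with 2 or more cells but 1 version were found elsewhere in 6.52% to 13.1% of cases, so the classes did not overlap. A chain with 2 or more versions holds at least 2 clonotypes, while a chain of 1 version can be 1 expanded clonotype. The classes were not matched for the number of clonotypes. The means were 48.6% ± 11.1 and 10.3% ± 2.44 (SD, n = 8), a difference of 38.4 ± 10.4 percentage points (p = 0.0078, exact permutation of signs, adjusted p = 0.0188). A shared chain was counted in each library that held it, so the libraries were not independent. Pooled over libraries, 39.3% of 326 entries with 2 versions and 75.7% of 74 entries with 3 or more were found elsewhere.

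The number of alpha partners showed the same direction with a smaller difference. A chain could be in the class with 2 or more versions and in that with 2 or more alpha chains, so these are not separate results. A chain paired with 2 or more different alpha chains in a library was found elsewhere in 20.1% ± 4.12 of cases, and a chain of 2 or more cells with 1 alpha chain in 10.1% ± 2.25. The difference was 10.0 ± 3.68 percentage points, higher in 8 of 8 libraries (p = 0.0078, exact permutation of signs, adjusted p = 0.0188). With chains named by nucleotides it was 3.96 percentage points (p = 0.0078 in the same exact test). Clone size gave a smaller difference. Chains seen as 1 clonotype of 2 or more cells were found elsewhere in 9.44% ± 2.52 of cases and chains of 1 cell in 7.46% ± 1.07. The difference of 1.98 percentage points was positive in 7 of 8 libraries (p = 0.0469, exact permutation, adjusted p = 0.0703). It did not pass without WT IgG, KO IgG or KO anti-4-1BB of either experiment, with p from 0.0781 to 0.125 in the exact test.

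**Figure D5:**
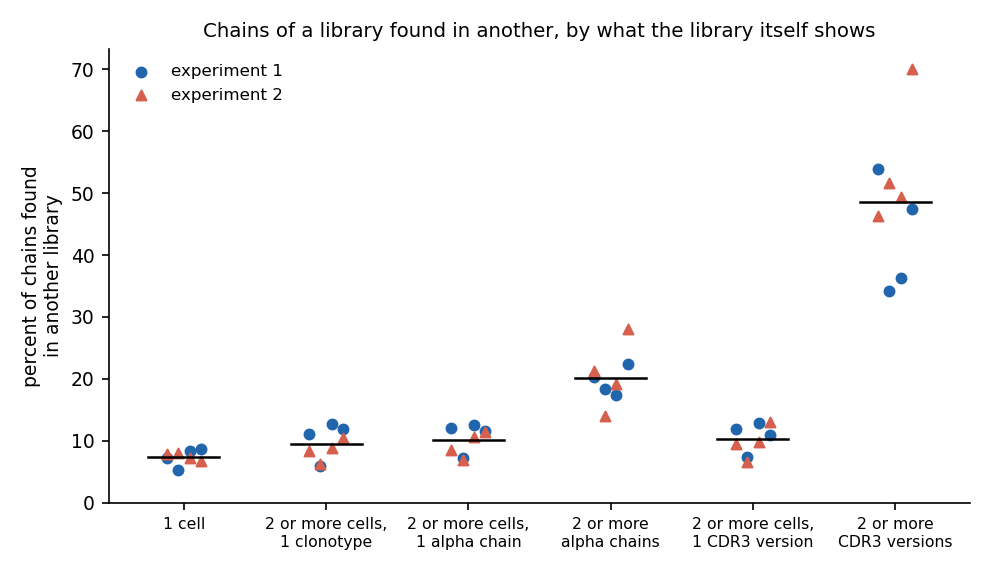
Each point is 1 library, and the y axis gives the percent of its chains, in 6 classes defined inside that library, that were found in another library. Black lines are means. Chains with 2 or more CDR3 nucleotide versions averaged 48.6%, chains with 2 or more alpha chains 20.1%, and the other 4 classes 7.46% to 10.3%.

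Recurrence in 1 experiment carried over to the other. Chains shared by 2 or more libraries of an experiment were then looked for in each library of the other experiment. They were found in 9.54% ± 3.09 (SD, n = 8) of cases, and chains of 1 library with 2 or more cells in 1.66% ± 0.520. The difference of 7.88 ± 2.77 percentage points was positive in 8 of 8 libraries (p = 0.0078, exact permutation of signs, adjusted p = 0.0188). The libraries of 1 experiment were scored against the same chains, so the 8 differences were not independent. The range was 5.67% (KO IgG, experiment 1) to 15.7% (WT anti-4-1BB, experiment 1) for the shared chains and 0.751% to 2.32% for the others. Taking the other experiment as a whole, 76 of 287 chains shared inside experiment 1 (26.5%, exact binomial 95% interval 21.5% to 32.0%) were in experiment 2, and 79 of 300 (26.3%, 21.4% to 31.7%) shared inside experiment 2 were in experiment 1. For chains in 3 or more libraries of an experiment the counts were 15 of 26 (57.7%, 36.9% to 76.6%) and 13 of 29 (44.8%, 26.4% to 64.3%). Of the chains of 1 library with 2 or more cells, 107 of 1595 (6.71%) and 90 of 1864 (4.83%) were in the other experiment, and of the chains of 1 cell 3.19% and 3.77%. With chains named by nucleotides the difference tested above was 5.21 percentage points (p = 0.0078, exact permutation).

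Members were also more often of 2 or more cells inside a library, 21.9% ± 5.95 against 12.4% ± 3.03 for other chains, and higher in 8 of 8 libraries. Their cells are part of what makes a chain visible in a second library, so this is a description. Clonotypes of 10 or more cells were seen for 23 members (2.25%) and 83 other chains (0.317%), and the largest clonotype had 68 cells among members and 71 among others. Of the members, 31.4% lay 1 amino acid from another member with the same V and J segments, against 7.28% of the chains of 1 library.

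Members differed in how alike their alpha chains were. Cells of the same member in different libraries had the same TRAV and TRAJ segments in 13.5% of cell pairs on average, against 0.110% for all cells of the same library pairs. The average came from few chains: 828 of 1020 members had 0% of pairs alike and 135 had 50% or more. Among the 635 members with 1 cell in each library 9.29% had 50% or more alike, and among the 36 members with 10 or more cells in a library 30.6%. Invariant natural killer T (iNKT) cells, which join TRAV11 or TRAV11D to TRAJ18 and pair this with few TRBV segments, had a member chain in 8 of 224 cells (3.57%, exact interval 1.55% to 6.92%), against 11.3% of the other cells. Cells were pooled over libraries, and a chain of many cells counts once per cell in the 11.3%, so the contrast was not tested. Of 4 cells with the TRAV1 and TRAJ33 alpha chain of mucosal-associated invariant T cells, 0 had a member chain.

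TRBV20 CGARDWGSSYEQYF was a recurrent chain with many partners. Its cells numbered 6, 3, 3 and 3 in experiment 1 and 4, 1, 6 and 4 in experiment 2, in the order IgG and anti-4-1BB of WT, then IgG and anti-4-1BB of KO mice, which is used for all counts below. It had 27 alpha chains in 30 cells, and the most frequent TRAJ segment, TRAJ31, was in 8 of them. No clonotype of it had more than 2 cells. A TRBV20 chain with TRBJ2-2 and the same start up to the glycine after tryptophan was in 6 libraries with 8 cells, 6 nucleotide versions and 8 alpha chains. TRBV3 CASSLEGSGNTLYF TRBJ1-3 was in 6 libraries as 6 cells with 6 alpha chains and 3 nucleotide versions.

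Other members kept a narrow set of alpha segments across libraries. The TRBV5 chain with TRBJ1-4 printed above was in 7 libraries with 11 cells (0, 2, 1 and 1, then 1, 1, 4 and 1). All 11 cells used TRAJ22, with 3 alpha chains and 4 beta nucleotide versions, of which 1 was in 8 cells of 5 libraries. TRBV16 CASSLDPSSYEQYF TRBJ2-7 was in 21 cells of 5 libraries (1, 0, 7 and 2, then 1, 0, 10 and 0). TRAV13N-2 with TRAJ27 was in 20 of them (95.2%), and the chain had 6 beta versions. TRBV10 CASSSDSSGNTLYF TRBJ1-3 was in 11 cells (2, 6, 0 and 1, then 0, 0, 1 and 1), of which 9 used TRAV10 and 8 used TRAJ34. Its 3 nucleotide versions differed at 1 base of a serine codon, and 2 of them were each in 3 libraries.

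Some recurrent chains were large in 1 experiment or library. TRBV26 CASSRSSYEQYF TRBJ2-7 was in 0 cells of all 4 libraries of experiment 1 and in 5, 18, 11 and 79 cells of experiment 2. It was the only member with 2 or more cells in every library of 1 experiment and 0 in the other. It had 9 beta versions, 17 alpha chains and 33 clonotypes, and TRAV13-1 was in 99 of its 113 cells (87.6%). TRBV26 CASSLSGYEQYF TRBJ2-7, of the same length, was in 39 cells (0, 0, 0 and 1, then 9, 1, 10 and 18) with 8 versions. TRBV5 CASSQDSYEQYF TRBJ2-7 was in 60 cells, 52 of them in WT anti-4-1BB of experiment 1 (0, 52, 0 and 1, then 0, 1, 0 and 6). TRAV13N-2 was in 54 of the 60 cells and TRAJ12 in 54, across 9 beta versions and 33 clonotypes. TRBV16 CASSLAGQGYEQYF TRBJ2-7 was in 62 cells of WT anti-4-1BB of experiment 2 and 2 cells of KO IgG of experiment 1. A clonotype of 57 cells held most of the former, and the 2 cells of the latter had another beta nucleotide version.

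The most cells belonged to a group of TRBV1 chains that differ at 1 residue, written CTCSAxGSQNTLYF with TRBJ2-4. This group was singled out after its values were seen. Members with alanine, leucine, proline, arginine or valine at the sixth position had 181, 142, 20, 40 and 68 cells. The most frequent beta version of each is printed with the central bases in capitals, and the codon of the varying residue is bases 16 to 18.
TRBV1 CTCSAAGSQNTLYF in 37 cells: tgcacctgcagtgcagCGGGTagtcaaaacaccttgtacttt
TRBV1 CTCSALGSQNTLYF in 77 cells: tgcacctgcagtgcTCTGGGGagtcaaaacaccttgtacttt
TRBV1 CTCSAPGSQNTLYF in 5 cells: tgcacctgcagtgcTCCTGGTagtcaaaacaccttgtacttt
TRBV1 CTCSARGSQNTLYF in 12 cells: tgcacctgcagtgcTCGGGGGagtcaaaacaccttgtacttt
TRBV1 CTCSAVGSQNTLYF in 52 cells: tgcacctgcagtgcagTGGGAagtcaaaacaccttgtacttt
With 7 chains of 1 library the group held 465 cells, 12 chains and 61 beta nucleotide versions. TRAJ30 was in 90.1% of its cells, against 3.52% of all other cells and 7.41% of other TRBV1 cells, and TRAV13 family segments were in 90.8% against 12.8%.

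The TRBV1 group was present in every library at very different sizes. It had 1, 6, 2 and 4 cells in experiment 1, 0.025% to 0.151% of the cells. In experiment 2 it had 5 cells (0.112%) in WT IgG, 117 (2.64%, exact interval 2.18% to 3.15%) in WT anti-4-1BB, 16 (0.267%) in KO IgG and 314 (6.399%, 5.73% to 7.12%) in KO anti-4-1BB. Both libraries with anti-4-1BB in experiment 2 stood above all others, and with 1 library per combination this was not tested. The 314 cells carried 33 beta versions in 64 clonotypes, the largest of 68 cells, and the 117 cells carried 15 versions in 19 clonotypes, the largest of 23. The alpha chain TRAV13-1 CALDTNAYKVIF TRAJ30 was in 154 cells of the group in 7 libraries and with 6 of its beta chains. TRAV13N-1 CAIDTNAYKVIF TRAJ30 was in 130 cells of 2 libraries and TRAV13N-1 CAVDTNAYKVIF TRAJ30 in 62 cells of 3. The proline member was in 7 libraries with 1, 2, 0 and 1 cells, then 1, 3, 6 and 6, and all 20 cells used TRAJ30.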

How the data were processed

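Single-cell TCR libraries of 8 samples were used, and 8 gene expression libraries were not analysed here. The submitters' processing notes name bcl2fastq 2.20.0, Cell Ranger 7.1.0, the R package Seurat and genome build GRCm38. Which V(D)J reference was used is not given in the sources used here. The deposited files list contigs with their count of reads and of UMIs, per the file headers. Tested on the files, 0 of 123611 contigs were marked as low confidence, incomplete or not productive.

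The rule of 1 TRB with 1 or 2 TRA chains kept 38108 of 74368 cells and left out unpaired cells and possible doublets. In a cell with 2 TRA chains only the one with the most UMIs was used, so cells of 1 clone can differ in it. Alpha chains were named by TRAV label, CDR3 and TRAJ, so the same CDR3 under 2 TRAV labels counts as 2 alpha chains. Members and lists were chosen with earlier results of these data known. The chains named are the 10 in the most libraries, the 5 with the most cells, nucleotide versions and alpha chains each, and those with 2 or more cells in every library of 1 experiment and 0 in the other. Segment labels named are those called and the 3 with the smallest p in each direction, with TRBV1 added afterwards. Libraries were compared by exact permutation of labels or signs, and 12 such tests were adjusted together. For length, central bases and segment use each chain was counted once, in 1 of its libraries drawn with a fixed seed. For presence by versions, alpha number and clone size a chain was counted in each library that held it. The held-out test used the same chains for all libraries of an experiment. Libraries were therefore not independent in these 4 tests. Segment labels with 10 or more chains in at least 2 libraries were tested with edgeR 4.0.16 in R 4.3.3, with DESeq2 1.42.0 as an alternative. Of 34 labels, 33 matched a RefSeq gene of GRCm38.p6.

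No germline segment sequence was used, so added bases were replaced by central bases, a measure chosen after the files were seen. The V start was extended base by base. Each base was the one shared by 50% or more of the label's distinct sequences that matched so far, with at least 20 of them. The whole run can therefore be kept by fewer than 50% of the sequences. The J end was read likewise from the other side, and is at most the RefSeq segment length less the 28 bases of framework 4. The V start had no such limit. Everything else was done in Python 3.11.15 (scipy 1.17.1, pandas 2.3.3, numpy 2.4.6 and, for figures, matplotlib 3.10.9). The scripts were tested on simulated data. The experiment number, given in the sample titles, pairs the libraries of the groups. Confidence intervals are exact (Clopper-Pearson) at 95% and cover counting error only.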

Additional observations from a re-analysis of the deposited data

How the results depend on the processing

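Depth limits the members: most chains were seen in 1 cell, and a chain of 1 library may be present unseen in another. The overlap by experiment was 2.62 to 4.17 per 1000 when 1 library was left out, 1.89 without chains of 10 or more cells and 1.93 with chains named by nucleotides. The overlap by genotype turned positive without some libraries (-1.34 to 0.654 over those left out), without chains of 10 or more cells (0.527) and with each clonotype as 1 cell (0.0952). The difference in share by experiment was 1.66 to 4.58 points with 1 library left out, 3.97 without thinning (exact permutation p = 0.0571), 1.56 with chains named by nucleotides (p = 0.114) and 0.011 without chains of 10 or more cells. Without these chains the share by treatment was -0.433 (exact permutation p = 0.229) and by genotype 0.732 (p = 0.0286). Leaving out 1 library gave 0.398 to 3.38 for the share by treatment and -0.0556 to 3.03 for the share by genotype. In experiment 1 and 2 alone, where 4 libraries allow no exact p below 0.125, length differed by -0.45 and -0.50 amino acids and central bases by -2.16 and -2.63. The difference by clone size was 1.30 to 2.21 points with 1 library left out. Segment calls numbered 3 to 14 with 1 library left out, 2 with DESeq2 (13 at an unadjusted p under 0.05), 7 with cells in place of chains, 4 with chains named by nucleotides, and 3 and 0 in experiment 1 and 2 alone (9 and 10 unadjusted, edgeR); TRBV13-2 was 0.76 with the joined label read as TRBV13-2. The cause was not tested. Length, central bases, nucleotide versions, alpha number and held-out presence kept their direction and call under all other alternatives, though with chains named by nucleotides alpha number fell from 10.0 to 3.96 points and held-out presence from 7.88 to 5.21. Leaving out cells whose barcode and TRB nucleotides occur in another library removed 0 cells. The replicate block exchanged labels only inside 1 experiment and 1 level of the other factor (genotype for treatment, treatment for genotype). Its exact permutation over 16 arrangements gave p = 0.125 for overlap by treatment (1.65) and genotype (-0.163). It gave 0.375 for share by treatment (2.31) and 0.25 for share by genotype (1.87). The smallest p it allows is 0.125, so it could pass no result. A block on experiment alone was not run. Without a library term 12 segment labels were called (no replicate block). Settings without the TRBV1 group or with large chains and clonotypes counted otherwise were chosen after seeing the data. Added bases against germline segments were not run.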
